A study of Mus musculus with 12 samples.

Results

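Interleukin-6 and interleukin-10 are both made by macrophages that meet bacterial products, and the transcripts of both cytokine systems were followed here in bone-marrow-derived macrophages (BMDM) with and without the clock gene Bmal1. The set was chosen by gene name and holds 9 of the 23440 genes in the expression table. It comprises the ligands Il6, Osm, Lif, Il10 and Il19 and the receptor chains Il6ra, Il6st, Il10ra and Il10rb. The 4 groups were M-BKO M1, WT M1, M-BKO control and WT control, each with 3 cell culture replicates, so p-values measure the spread between cultures. M-BKO macrophages came from C57BL/6J mice with floxed Bmal1 alleles and Cre in the myeloid gene Lyz2, and WT macrophages carried the floxed alleles. The study names Cre for M-BKO mice alone, so loss of Bmal1 and the Cre insertion cannot be told apart. All cultures were differentiated for 7 days in 30% L929-conditioned medium and primed overnight with Ifn-γ. M1 cultures then received LPS for 8 h, while control cultures were left with Ifn-γ alone. How many mice the cultures came from was not stated.

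IL-6, oncostatin M (Osm) and LIF signal through receptors that share the gp130 chain, encoded by Il6st, and activate Jak kinases and Stat3. IL-10 binds its own chain, Il10ra, paired with the shared chain Il10rb, and also works through Stat3, but in macrophages it restrains the inflammatory response. Socs3, induced by Stat3, binds gp130 and limits IL-6 signaling while leaving the IL-10 receptor largely untouched. IL-19 belongs to the IL-10 family by structure but uses the receptors of IL-20.

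Values are TPM, a transcript level scaled for length that adds to 1000000 in every library, so read depth is unknown. Arntl, the gene of Bmal1, was at 3.03 to 3.39 TPM in M-BKO M1 and 4.81 to 5.80 TPM in WT M1, and at 1.97 to 2.46 TPM in M-BKO control and 7.25 to 7.71 TPM in WT control. Lyz2 was at 52.3 to 78.8 TPM in M-BKO M1 against 14840 to 15081 TPM in WT M1. Each library held 13315 to 13574 genes above 0. All 6 macrophage markers had at least 1 TPM in every library, and they added up to 3542 to 3737 TPM in M-BKO M1, 3286 to 3444 TPM in WT M1, 5964 to 6105 TPM in M-BKO control and 5359 to 5465 TPM in WT control. Of 26 markers of T, B, NK, dendritic and mast cells, neutrophils and fibroblasts, 25 were found, 4 or 5 of them had at least 1 TPM in every library of a group, and 2 to 5 were at 0 throughout a group. They added up to 25.4 to 27.3 TPM in M-BKO M1, 22.2 to 23.4 TPM in WT M1, 45.6 to 54.8 TPM in M-BKO control and 40.7 to 44.5 TPM in WT control. These sums moved with treatment and with genotype, their part in the results was not tested, and in bulk RNA fewer cells of a type cannot be told apart from less RNA per cell.

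M1 activation raised the ligands and lowered the IL-6 receptor chains in both genotypes. Of the 8 genes that passed the filter of at least 1 TPM in at least 3 libraries, 4 ligands were called higher and 3 receptor chains lower in M-BKO, and the same counts were obtained in WT. A call required an adjusted p under 0.05 (limma on log2(TPM + 1), Benjamini-Hochberg) and a change over 1.5-fold. The same rule called 12.3% of all 10822 genes higher and 42.3% lower in M-BKO, and 12.9% and 41% in WT. M1 and control cultures did not overlap for 7 of the 8 in each genotype, beside 89.3% of all genes in M-BKO and 84.4% in WT. Lif missed the filter on low values. Il6 and Il19, below 1 TPM in every control library, passed it through M1 libraries alone, so the filter favoured calling both higher.

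Il6, the gene of the acute-phase cytokine, showed the steepest induction of the 8. Its level was 656, 597 and 658 TPM in M-BKO M1 and 593, 407 and 518 TPM in WT M1, against 0, 0.254 and 0.547 TPM in M-BKO control and 0.0845, 0.176 and 0.339 TPM in WT control. Control cultures were at or near 0 in both genotypes, far below every M1 culture. The log2 fold change of TPM + 1 was 9.0 ± 0.15 (SE) in M-BKO and 8.71 ± 0.15 in WT (limma adjusted p = 1.4e-15 and 2.0e-15), values that depend on the added 1 TPM and ran from 6.93 to 11.13 in M-BKO and 6.60 to 10.80 in WT under other settings. Il6 lies on mm10 chromosome 5 from 30013161 to 30019968 on the plus strand.

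The 250 bases before the RefSeq start of Il6 (GRCm38.p6, chr5:30012864-30013113, plus strand) are shown because this promoter is a textbook case of NF-kB and C/EBP control. Capitals mark, in order from the 5′ end, AP-1 (TGANTCA), the core of a CRE (TGACG, here on the minus strand), a C/EBP motif (TTGCNNAA, also on the minus strand) and NF-kB (GGG and TTCC with any 3 bases between), which do not overlap.
Il6: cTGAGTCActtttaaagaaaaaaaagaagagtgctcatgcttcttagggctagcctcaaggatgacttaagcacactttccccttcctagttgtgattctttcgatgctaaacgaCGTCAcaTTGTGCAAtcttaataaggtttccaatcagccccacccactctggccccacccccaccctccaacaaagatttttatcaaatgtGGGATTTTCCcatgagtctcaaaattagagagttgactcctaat
The NF-kB letters span bases -44 to -35, counted back from the RefSeq start, which lies upstream of the start that the deposited table gives. On both strands, 4.65% of 32851 RefSeq promoter windows of this length held the NF-kB letters, 9.56% the C/EBP letters, 6.75% the AP-1 letters and 17.8% the CRE core. RefSeq windows were matched for 5 of the 9 genes, Il6, Il6ra, Il6st, Lif and Il19.

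Osm, an IL-6 family cytokine made by activated macrophages, also rose. It was at 21.6, 19.7 and 19.2 TPM in M-BKO M1 and 18.1, 19.3 and 17.3 TPM in WT M1, against 2.66, 2.85 and 3.07 TPM in M-BKO control and 2.07, 2.30 and 2.17 TPM in WT control. The M1 and control ranges were well apart in each genotype. Its log2 fold change was 2.45 ± 0.07 (SE) in M-BKO and 2.59 ± 0.07 in WT (limma adjusted p = 3.9e-13 and 2.4e-13). Lif, a cytokine of the same family and the neighbour of Osm on chromosome 11 at a distance of 16.5 kb, stayed below 1 TPM in all libraries. Lif was at 0.540, 0.261 and 0.456 TPM in M-BKO M1 and 0.231, 0.339 and 0.221 TPM in WT M1, with at most 0.0736 TPM in M-BKO control and 0.0912 TPM in WT control. M1 and control cultures did not overlap in either genotype. When the filter was dropped and 15894 genes were tested, the log2 fold change of Lif was 0.42 in M-BKO and 0.24 in WT (limma adjusted p = 9.0e-05 and 0.0052), below the 1.5-fold threshold.

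Il10, the deactivating cytokine, was present before LPS and rose further. It was at 29.7, 32.4 and 31.5 TPM in M-BKO M1 and 35.1, 35.6 and 37.6 TPM in WT M1, against 7.09, 6.49 and 7.14 TPM in M-BKO control and 5.63, 5.99 and 6.84 TPM in WT control. All M1 cultures lay above all control cultures. The log2 fold change was 2.02 ± 0.07 (SE) in M-BKO and 2.38 ± 0.07 in WT (limma adjusted p = 2.2e-12 and 4.4e-13), a 4.07-fold and a 5.20-fold rise of TPM + 1. Il19, which lies 80.6 kb from Il10 on chromosome 1, was detected at low level after LPS. It was at 1.87, 1.55 and 0.983 TPM in M-BKO M1 and 0.711, 2.11 and 1.84 TPM in WT M1, and 2 of 3 control libraries of each genotype listed it at 0. Its log2 fold change of 1.24 in M-BKO and 1.26 in WT (limma adjusted p = 2.2e-05 and 1.9e-05) was 0.36 and 0.37 with 5 TPM added, below the 1.5-fold threshold.

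**Figure D1:**
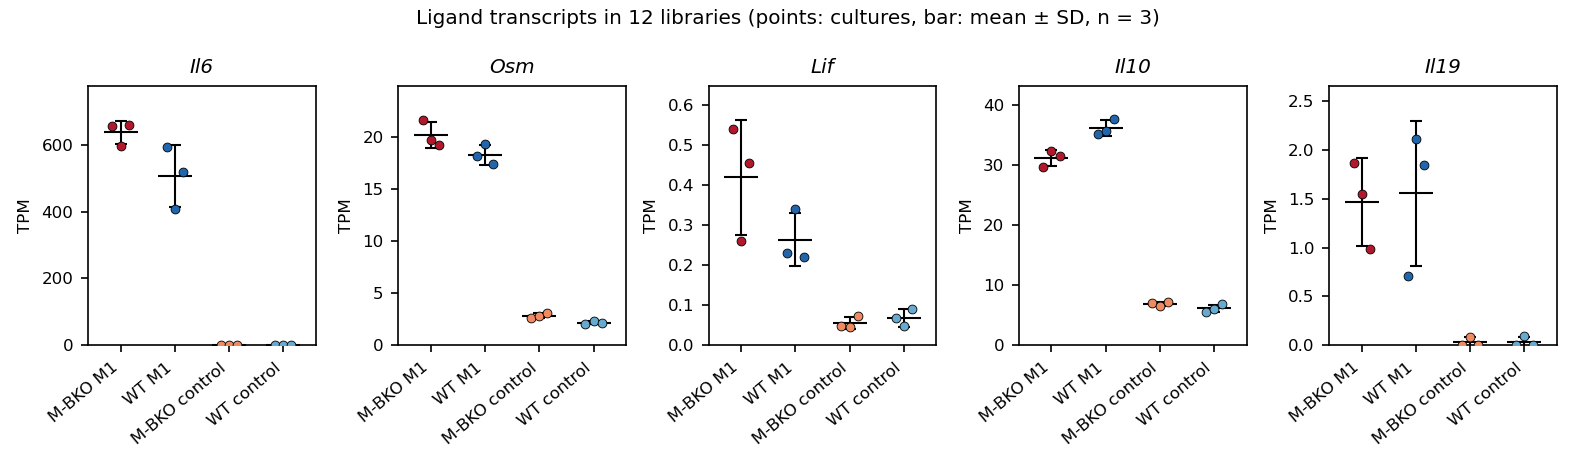
TPM of the 5 ligand genes in each culture (points), with the group mean and SD (bars, n = 3), for M-BKO M1, WT M1, M-BKO control and WT control. Each panel has its own linear axis from 0. Il6 reached 597 to 658 TPM in M-BKO M1 and 407 to 593 TPM in WT M1, and Il10 was 29.7 to 32.4 TPM in M-BKO M1 and 35.1 to 37.6 TPM in WT M1.

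The receptor chains for IL-6 moved against their ligand. Il6ra, the IL-6 binding chain, was at 14.1, 12.4 and 15.1 TPM in M-BKO M1 and 14.1, 14.6 and 14.5 TPM in WT M1, against 49.6, 50.3 and 50.7 TPM in M-BKO control and 45.5, 43.4 and 44.2 TPM in WT control. Il6st, encoding gp130, was at 15.7, 14.2 and 15.6 TPM in M-BKO M1 and 15.7, 15.9 and 14.5 TPM in WT M1, against 43.8, 44.4 and 46.0 TPM in M-BKO control and 45.8, 45.3 and 50.7 TPM in WT control. No M1 culture reached the control range for either gene. On the log2 scale Il6ra fell by 1.79 in M-BKO and by 1.56 in WT, and Il6st fell by 1.5 in M-BKO and by 1.56 in WT (SE 0.06 each, limma adjusted p of at most 1.1e-11). All 4 falls were larger than the median change over all tested genes, which was -0.45 in M-BKO and -0.43 in WT.

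Il10ra fell less and Il10rb did not pass the test. Il10ra, the IL-10 binding chain, was at 206, 197 and 217 TPM in M-BKO M1 and 230, 228 and 231 TPM in WT M1, against 323, 335 and 336 TPM in M-BKO control and 352, 363 and 369 TPM in WT control. Il10rb, the chain shared with other receptors of the family, was at 210, 221 and 218 TPM in M-BKO M1 and 201, 212 and 206 TPM in WT M1, against 220, 223 and 226 TPM in M-BKO control and 194, 207 and 224 TPM in WT control. M1 and control cultures were apart for Il10ra and overlapped for Il10rb. The log2 fold change of Il10ra was -0.68 ± 0.04 (SE) in M-BKO and -0.65 ± 0.04 in WT (limma adjusted p = 6.0e-10 and 9.4e-10), and that of Il10rb was -0.05 and -0.01 (0.37 and 0.86). Scaling each library by its median ratio to the average library, which brings the median change of all genes to 0.00, left Il10ra at -0.19 in both genotypes, below the 1.5-fold threshold, and turned Il10rb to 0.44 in M-BKO and 0.46 in WT.

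**Figure D2:**
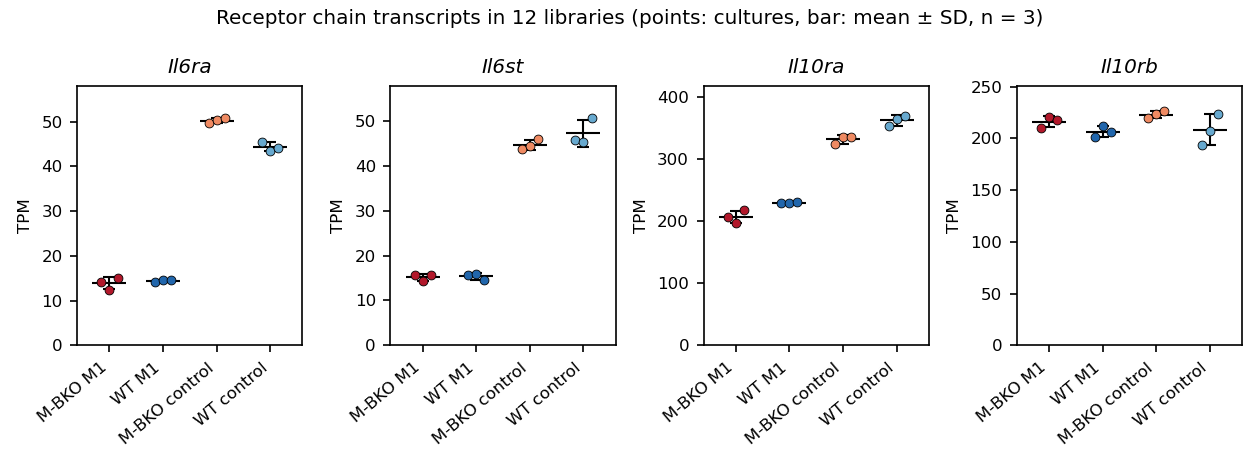
TPM of the 4 receptor chain genes in each culture (points), with the group mean and SD (bars, n = 3), for M-BKO M1, WT M1, M-BKO control and WT control. Axes are linear from 0. Il6ra and Il6st were at 12.4 to 15.9 TPM in all M1 cultures and at 43.4 to 50.7 TPM in all control cultures, while Il10rb stayed between 194 and 226 TPM throughout.

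Within M-BKO M1 cultures the order of levels was Il6 (637 ± 34.5 TPM, SD), Il10rb (216 ± 5.42), Il10ra (207 ± 9.78), Il10 (31.2 ± 1.37), Osm (20.2 ± 1.28), Il6st (15.2 ± 0.815), Il6ra (13.9 ± 1.36), Il19 (1.47 ± 0.448) and Lif (0.419 ± 0.143). The neighbours Il10rb and Il10ra overlapped, as did Il6st and Il6ra. In WT M1 cultures Il6 stood at 506 ± 93.6 TPM, and Il10ra (230 ± 1.43 TPM) was above Il10rb (207 ± 5.26 TPM) without overlap. Without LPS the 4 receptor chains led in both genotypes, with Il10ra at 331 ± 6.86 TPM in M-BKO control and 362 ± 8.69 TPM in WT control.

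Few genes of the set passed the test between M-BKO and WT after M1. Of the 8 genes tested, 1 was called lower, Il10ra, and none higher by limma at an adjusted p under 0.05, with 3 genes at an unadjusted p under 0.05. For unadjusted p-values, here and below, the share over all genes was not computed, so such counts show no excess. Over all genes 2.45% were called lower and 5.87% higher. The 3 M-BKO M1 values lay apart from the 3 WT M1 values for Il6, Il10 and Il10ra, and such separation was seen in 31.9% of all genes tested, a share close to 3 of 8. The median log2 difference of the 8 genes was -0.02, beside 0.03 over all genes.

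Il10ra was lower in M-BKO M1 by 0.15 on the log2 scale, a ratio of 0.901 (limma adjusted p = 0.029, 95% interval of the log2 difference -0.23 to -0.07). It was lower under median-ratio scaling as well (log2 difference -0.20, adjusted p = 0.0086). The call was lost when the variance was modelled without a trend (adjusted p = 0.076) and when any 1 of WT M1 replicate 2, WT M1 replicate 3, M-BKO M1 replicate 1 or M-BKO M1 replicate 2 was left out (log2 difference -0.12 to -0.18 over all 12 omissions, largest adjusted p = 0.11).

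Il10 and Il6 did not pass the adjusted threshold between genotypes after M1. The log2 difference of Il10 was -0.21 ± 0.07 (SE, 95% interval -0.35 to -0.06, limma adjusted p = 0.085), all 3 M-BKO cultures being below all 3 WT cultures, and it did pass under median-ratio scaling (-0.26, adjusted p = 0.036) and without WT control replicate 3 (-0.21, adjusted p = 0.024). The log2 difference of Il6 was 0.35 ± 0.15 (95% interval 0.03 to 0.67, adjusted p = 0.17), with all 3 M-BKO cultures above all 3 WT cultures. WT M1 replicate 2, at 407 TPM, had the lowest Il6 of the 6, and the difference ranged from 0.20 to 0.47 when each library was left out. For the other tested genes the log2 difference was 0.14 for Osm (adjusted p = 0.25), 0.06 for Il10rb (0.42), -0.05 for Il6ra (0.63), -0.01 for Il6st (0.91) and -0.02 for Il19 (0.96). The 95% interval of Il19 ran from -0.42 to 0.38, and that of Il6st from -0.14 to 0.11. With no filter Lif differed by 0.16 (limma adjusted p = 0.19), and its values overlapped.

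Without LPS, Osm was the 1 gene of 8 called between genotypes, with 4 of 8 at an unadjusted p under 0.05. The share of all genes at that unadjusted p was not computed, so the 4 of 8 show no excess. Over all genes 4.56% were called higher and 1.12% lower in M-BKO control. Osm was at 2.66 to 3.07 TPM in M-BKO control and 2.07 to 2.30 TPM in WT control, a log2 difference of 0.28 ± 0.07 (SE, 95% interval 0.13 to 0.43, limma adjusted p = 0.037). The call did not hold under median-ratio scaling (0.21, adjusted p = 0.16) or with Lyz2 left out of the TPM total (0.24, adjusted p = 0.086). It was also lost on omission of any 1 of WT control replicates 1 and 2, M-BKO control replicates 1, 2 and 3 and M-BKO M1 replicate 2 (0.24 to 0.32, largest adjusted p = 0.15). Il6ra was 0.18 higher on the log2 scale and Il10ra 0.13 lower in M-BKO control, both without overlap and neither past the threshold (adjusted p = 0.12 and 0.075). Separation of this kind was seen in 26.2% of all genes. Il10ra passed under median-ratio scaling (-0.20, adjusted p = 0.015), whereas Il6ra then stood at 0.10 (adjusted p = 0.56). Il10 (0.15), Il10rb (0.10), Il6st (-0.08), Il6 (0.06) and Il19 (-0.00) overlapped between genotypes (adjusted p of at least 0.24), as did Lif, tested with no filter (-0.018, adjusted p = 0.97).

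**Figure D3:**
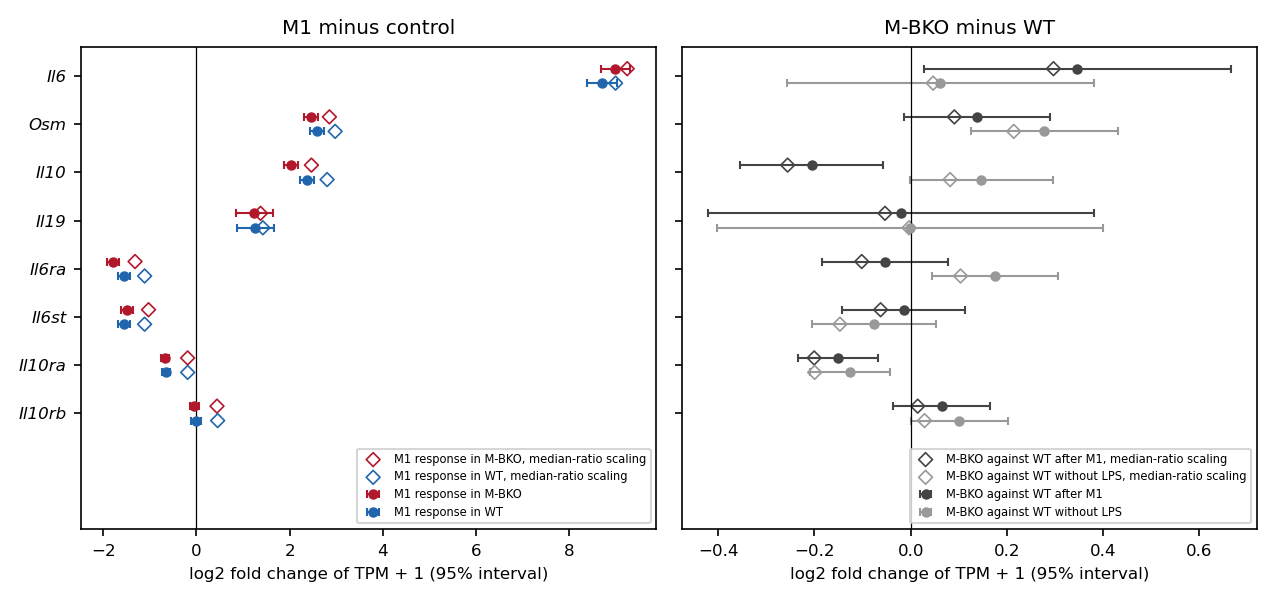
Log2 fold change of TPM + 1 for the 8 tested genes, M1 minus control on the left and M-BKO minus WT on the right, with 95% intervals from limma (filled points) and the value after median-ratio scaling (open diamonds). The horizontal scales differ. Ligands lie above 0 and IL-6 receptor chains below 0 in the M1 panel, where Il10rb moves from about 0 to 0.44 in M-BKO and 0.46 in WT with the scaling. In the genotype panel the filled points lie between -0.21 and 0.35.

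Whether the M1 response itself differed between genotypes was tested as an interaction, in which a negative value is a smaller response in M-BKO. None of the 8 genes passed by limma, while 1.38% of all genes were called. Unadjusted, 2 of the 8 had a p under 0.05, a count with no share over all genes beside it. For Il10 the interaction was -0.35 ± 0.10 (SE, 95% interval -0.56 to -0.14, adjusted p = 0.10), from -0.42 to -0.30 over the 12 omissions of a library and with an adjusted p of 0.020 without WT control replicate 3. For Il6ra it was -0.23 (adjusted p = 0.23), and for Il6 it was 0.28 (95% interval -0.17 to 0.74, adjusted p = 0.53). It was -0.14 for Osm, 0.06 for Il6st, -0.04 for Il10rb, -0.02 for Il10ra and -0.02 for Il19 (adjusted p of at least 0.51), and 0.18 for Lif with no filter (adjusted p = 0.44). The comparisons after M1, without LPS and of the M1 responses share libraries, so their values are not independent.

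Ratios of transcripts within a library do not depend on scaling between libraries. The Il6 to Il10 ratio was 20.5 ± 1.86 in M-BKO M1 and 14.0 ± 2.74 in WT M1 (SD, n = 3 each), 1.47 times as high in M-BKO with no overlap (exact permutation test, two-sided, p = 0.1, the smallest that 3 against 3 cultures allow). Il6 lay higher and Il10 lower in M-BKO M1 without overlap, so this separation and its p followed from the levels given above. The Il10ra to Il10rb ratio was 0.958 ± 0.0555 in M-BKO M1 and 1.11 ± 0.0322 in WT M1, and 1.48 ± 0.0142 in M-BKO control and 1.74 ± 0.0837 in WT control, lower in M-BKO without overlap in each treatment (exact p = 0.1 in both). The Il6ra to Il6st ratio was 1.12 ± 0.0165 in M-BKO control and 0.941 ± 0.0626 in WT control, again without overlap (exact p = 0.1), and 0.912 ± 0.0475 in M-BKO M1 and 0.939 ± 0.0566 in WT M1, with overlap (exact p = 0.6). Between M1 and control cultures this ratio differed by -0.30 on the log2 scale in M-BKO, being lower in M1 (exact p = 0.1) and by 0.00 in WT (exact p = 1). These are 3 ratios in up to 4 comparisons, and no exact p could pass 0.05 in this design.

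**Figure D4:**
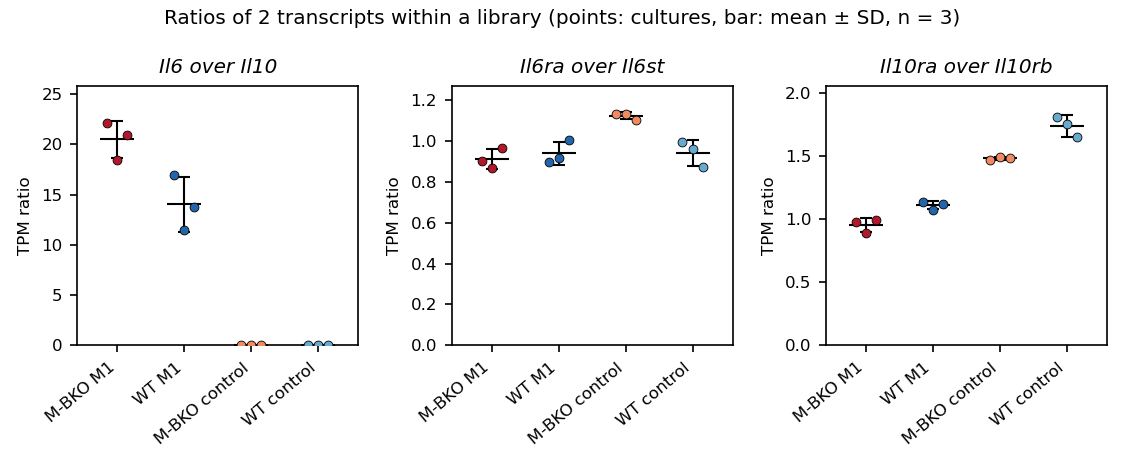
Ratio of TPM of 2 genes in the same library for each culture (points), with the group mean and SD (bars, n = 3), on linear axes from 0. Il6 over Il10 is 20.5 on average in M-BKO M1 and 14.0 in WT M1, and Il10ra over Il10rb is lower in M-BKO than in WT in both treatments.

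Il6ra is also shown by sequence, since its promoter holds the letters that the Bmal1 and Clock heterodimer binds elsewhere in the genome. The window of 250 bases before the RefSeq start (GRCm38.p6, chr3:89913197-89913446, minus strand) holds the E-box CACGTG at bases -24 to -19 and a CRE core (TGACG, on the opposite strand of the gene) at -236 to -232, both in capitals and apart from each other.
Il6ra: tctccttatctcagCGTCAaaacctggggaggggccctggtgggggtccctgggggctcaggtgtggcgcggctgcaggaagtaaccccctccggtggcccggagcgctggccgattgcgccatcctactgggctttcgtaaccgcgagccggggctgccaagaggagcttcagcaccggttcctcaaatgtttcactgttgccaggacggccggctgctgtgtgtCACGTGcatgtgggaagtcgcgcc
The E-box letters were present in 6.02% of all RefSeq promoter windows of this length, searched on both strands, and Il6ra alone of the 5 matched windows held them. Beside this sequence stand the levels of Il6ra given above, 1.13 times as high in M-BKO as in WT without LPS and 0.963 times after M1, neither past the threshold. The letters are a description and no measurement of binding.

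The rest of the pathway was described by 8 lists with 74 genes, of which 57 passed the filter. In M-BKO, M1 raised 28 and lowered 6 of the 57, and in WT it raised 29 and lowered 6, which is 49.1% and 10.5% of the list genes in M-BKO and 50.9% and 10.5% in WT beside the shares over all genes of 12.3% and 42.3%, and 12.9% and 41%. Median-ratio scaling gave 35 and 5 in M-BKO and 36 and 5 in WT. After M1, 3 of the 57 (5.26%) were higher and 8 (14.0%) lower in M-BKO than in WT, beside 5.87% and 2.45% of all genes, and median-ratio scaling gave 1 and 12. Without LPS 1 of the 57 was called. The lists were chosen with earlier results of these data known, so the shares beside those of all genes describe the lists and test no excess. The same holds for the counts of each single list below.

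Il27 and Ebi3 encode the 2 chains of IL-27, a cytokine that signals through gp130, and Clcf1 is a gp130 ligand as well. Of 13 other ligands of the gp130 and IL-10 families 4 passed the filter, and Il27, Ebi3 and Clcf1 rose in both genotypes, Clcf1 by 2.93 on the log2 scale in M-BKO and 3.07 in WT. Clcf1 was at most 0.364 TPM in M-BKO control and 0.113 TPM in WT control, and passed the filter through M1 libraries alone. Its value ran from 1.33 to 4.87 in M-BKO and 1.34 to 5.92 in WT under other settings. Ebi3 was at 486 to 500 TPM in M-BKO M1 and 624 to 668 TPM in WT M1, and Il27 at 486 to 516 TPM in M-BKO M1 and 599 to 621 TPM in WT M1. Neither gene overlapped between genotypes. Ebi3 was lower in M-BKO by 0.38 on the log2 scale and Il27 by 0.27 (limma adjusted p = 6.0e-04 and 0.019), and the M1 response of Ebi3 was smaller in M-BKO (interaction -0.41, adjusted p = 0.016). The lower Ebi3 after M1 held on omission of each library, whereas that of Il27 lost its call without any 1 of WT M1 replicates 2 and 3 and M-BKO M1 replicates 1 and 2 (-0.25 to -0.29 over all omissions, largest adjusted p = 0.083). The interaction of Ebi3 lost its call without any 1 of WT M1 replicate 3, M-BKO control replicate 2 and M-BKO M1 replicates 2 and 3 (-0.34 to -0.45, largest adjusted p = 0.059). Il20 and Il24 were listed at 0 in every library.

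Among 10 other receptor chains 4 passed the filter. Lifr, which pairs with gp130 to bind LIF, was at 0.132 to 0.162 TPM in M-BKO M1 and 0.106 to 0.123 TPM in WT M1, against 2.31 to 2.40 TPM in M-BKO control and 2.26 to 2.52 TPM in WT control, and its log2 fold change was -1.56 in M-BKO and -1.62 in WT (limma adjusted p = 6.9e-11 and 4.6e-11). Il27ra, which pairs with gp130 to bind IL-27, fell too (-0.87 and -0.91), and Il11ra1, an IL-11 receptor chain, rose (0.79 and 0.82). Il27ra was at most 0.719 TPM in M-BKO M1 and 0.737 TPM in WT M1. Lifr and Il27ra, below 1 TPM in every M1 library, passed the filter through control libraries alone, so the filter favoured calling both lower. With 5 TPM added, Lifr stood at -0.52 in M-BKO and -0.54 in WT and Il27ra at -0.29 and -0.32, below the 1.5-fold threshold, and Il27ra also missed it under quantile normalization (-0.53 and -0.58). Osmr, the chain for oncostatin M, was at most 0.144 TPM in any library, and Il20ra was listed at 0 throughout. None of the 4 was called between genotypes by limma after M1, 0 had an unadjusted p under 0.05, and the smallest adjusted p was that of Il20rb (log2 difference 0.20, adjusted p = 0.49).

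Of 11 kinases, STATs and adaptors, 5 rose with M1 in each genotype, beside 12.3% of all genes in M-BKO and 12.9% in WT. Jak2 rose by 2.21 in M-BKO and 2.14 in WT on the log2 scale, Stat5a by 0.98 and 1.34, and Stat3 by 0.59 and 0.78. In M-BKO the rises of Stat3 and Gab2 lay at the 1.5-fold threshold, and the count higher ran from 3 to 5 when each library was left out and from 2 to 8 under the other settings. Stat3, the factor that IL-6 and IL-10 share, was at 292, 317 and 318 TPM in M-BKO M1 and 340, 344 and 344 TPM in WT M1. Its log2 difference was -0.15 (limma adjusted p = 0.026), and all M-BKO cultures were below all WT cultures. The call was lost with no variance trend (adjusted p = 0.071) and without any 1 of WT M1 replicates 2 and 3 and M-BKO M1 replicate 2 (-0.11 to -0.17 over all omissions, largest adjusted p = 0.097). Gab1, an adaptor of gp130 signaling, was higher in M-BKO M1 (0.27, adjusted p = 0.043). The call was lost under 6 of 9 other settings, among them median-ratio scaling (0.24, adjusted p = 0.070) and 0.1 TPM added (0.35, adjusted p = 0.11). It was also lost on 9 of 12 omissions, each library but the 3 of WT control (0.22 to 0.31, largest adjusted p = 0.15).

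Socs1 and Socs3 encode feedback inhibitors of Jak and gp130 signaling. Socs3 was at 468 to 492 TPM in M-BKO M1 and 547 to 568 TPM in WT M1, against 73.1 to 79.4 TPM in M-BKO control and 57.2 to 69.9 TPM in WT control. M-BKO values lay below WT values after M1 and above them without LPS, without overlap, and neither difference passed (adjusted p = 0.051 and 0.067), that after M1 passing under median-ratio scaling (-0.27, adjusted p = 0.038). The rise was 2.64 in M-BKO and 3.07 in WT on the log2 scale (interaction -0.44, limma adjusted p = 0.032). Socs1, which inhibits Jak kinases, was at 192 to 203 TPM in M-BKO M1 and 234 to 283 TPM in WT M1, and was called higher with M1 in WT (0.79) but at 0.23 in M-BKO did not reach 1.5-fold (interaction -0.56, adjusted p = 0.031). Under median-ratio scaling Socs1 was called higher in both, at 0.71 in M-BKO and 1.25 in WT. After M1 Socs1 was lower in M-BKO by 0.42 on the log2 scale (adjusted p = 0.0056). Both interactions missed the threshold under 4 of 9 other settings. These were median-ratio scaling (Socs1 -0.54, adjusted p = 0.068, and Socs3 -0.41, adjusted p = 0.069), no filter, quantile normalization and no variance trend. The largest adjusted p under these settings was 0.074 for each gene. Each was also lost on 8 of 12 omissions, those of WT M1 replicates 2 and 3 and of every M-BKO library (Socs1 -0.46 to -0.65, largest adjusted p = 0.085, and Socs3 -0.34 to -0.48, largest adjusted p = 0.094). Of the other 5 tested inhibitors Cish rose in both genotypes (1.09 in M-BKO and 1.05 in WT), but was below the 1.5-fold threshold with 5 TPM added (0.52 and 0.51). Pias3 was called lower (-0.67 in M-BKO and -0.60 in WT), but not under median-ratio scaling (-0.23 and -0.18), quantile normalization (-0.16 and -0.13) or with 5 TPM added (-0.48 and -0.43). In WT its call was also lost without any 1 of WT control replicate 2 and WT M1 replicates 1 and 3.

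Of 9 genes that Stat3 is known to induce, 7 rose with M1 in each genotype, beside 12.3% of all genes in M-BKO and 12.9% in WT. After M1, 3 of the 9 were lower in M-BKO than in WT, beside 2.45% of all genes. The list was chosen with earlier results of these data known, so these counts test no excess. Il4ra, the IL-4 receptor chain that IL-10 raises in macrophages, was at 152, 152 and 155 TPM in M-BKO M1 and 192, 202 and 206 TPM in WT M1 (log2 difference -0.38, limma adjusted p = 2.3e-04). Etv3, a repressor induced by IL-10, was at 101, 103 and 104 TPM in M-BKO M1 and 123, 123 and 127 TPM in WT M1 (-0.28, adjusted p = 5.9e-04). Bcl3, an NF-kB regulator, was at 85.7, 92.2 and 92.7 TPM in M-BKO M1 and 110, 111 and 117 TPM in WT M1 (-0.32, adjusted p = 0.032). None of the 3 overlapped between genotypes, and all 3 passed under median-ratio scaling. Il4ra and Etv3 held on omission of each library, while Bcl3 lost its call with no filter (adjusted p = 0.072), with no variance trend (adjusted p = 0.056) and without any 1 of WT M1 replicates 2 and 3 and M-BKO M1 replicates 1, 2 and 3 (-0.28 to -0.34, largest adjusted p = 0.11). The median log2 difference of the 9 genes was -0.17, beside 0.03 over all genes. Il4ra was not among the 7 genes called higher with M1 in either genotype, and none of the 9 was called lower. Its M1 response (interaction -0.41, limma adjusted p = 0.0088) and that of Etv3 (-0.26, adjusted p = 0.031) was lower in M-BKO. The Etv3 interaction missed the threshold under median-ratio scaling (-0.24, adjusted p = 0.053), quantile normalization (-0.21, adjusted p = 0.093) and no variance trend (adjusted p = 0.066). It was also lost on 10 of 12 omissions, all but WT control replicates 1 and 3 (-0.24 to -0.27, largest adjusted p = 0.091).

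Il1rn, which encodes the IL-1 receptor antagonist and is on the same list, went the other way. It was at 93.8, 94.6 and 96.5 TPM in M-BKO control and 112, 112 and 124 TPM in WT control (log2 difference -0.29, limma adjusted p = 0.0013), and its difference after M1 was 0.06 (adjusted p = 0.38). Its M1 response was larger in M-BKO (interaction 0.35, adjusted p = 0.012). Il1rn rose with M1 by 5.05 in M-BKO and 4.70 in WT on the log2 scale, Pim3, a kinase, by 2.74 and 2.70, and Nfil3, a repressor, by 1.81 and 1.85. Pim1 and Junb rose in both genotypes as well. Nfil3, Pim1, Pim3 and Junb did not pass the test between genotypes.

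Of 11 regulators of Il6 and Il10 transcription, 6 rose with M1 in each genotype, beside 12.3% of all genes in M-BKO and 12.9% in WT. Among them were Nfkbiz, a nuclear partner of NF-kB needed for Il6 (2.67 in M-BKO and 2.90 in WT), Batf (3.45 and 3.56) and Cebpb (3.15 and 3.70). Cebpb, whose protein binds C/EBP motifs such as that in the Il6 sequence, was at 139, 164 and 168 TPM in M-BKO M1 and 184, 225 and 243 TPM in WT M1. The groups did not overlap, and the log2 difference was -0.46 (limma adjusted p = 0.018). That of Il6 was 0.35 and not called, and a link between the levels of Cebpb and Il6 was not tested. The call of Cebpb was lost with no filter (adjusted p = 0.052) and without any 1 of WT M1 replicates 2 and 3 and M-BKO M1 replicate 3 (-0.38 to -0.58 over all omissions, largest adjusted p = 0.091). Prdm1, a repressor known to promote Il10 in T cells, was higher in M-BKO M1 (0.22, adjusted p = 0.037). The call was lost under 4 of 10 other settings, among them median-ratio scaling (0.18, adjusted p = 0.069) and quantile normalization (0.16, adjusted p = 0.10). It was also lost on 8 of 12 omissions, all but the 3 of WT control and M-BKO M1 replicate 2 (0.19 to 0.27, largest adjusted p = 0.14). Nfkb1, Rel and Rela did not pass the test between genotypes (log2 differences after M1 of 0.09, 0.02 and 0.08).

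**Figure D5:**
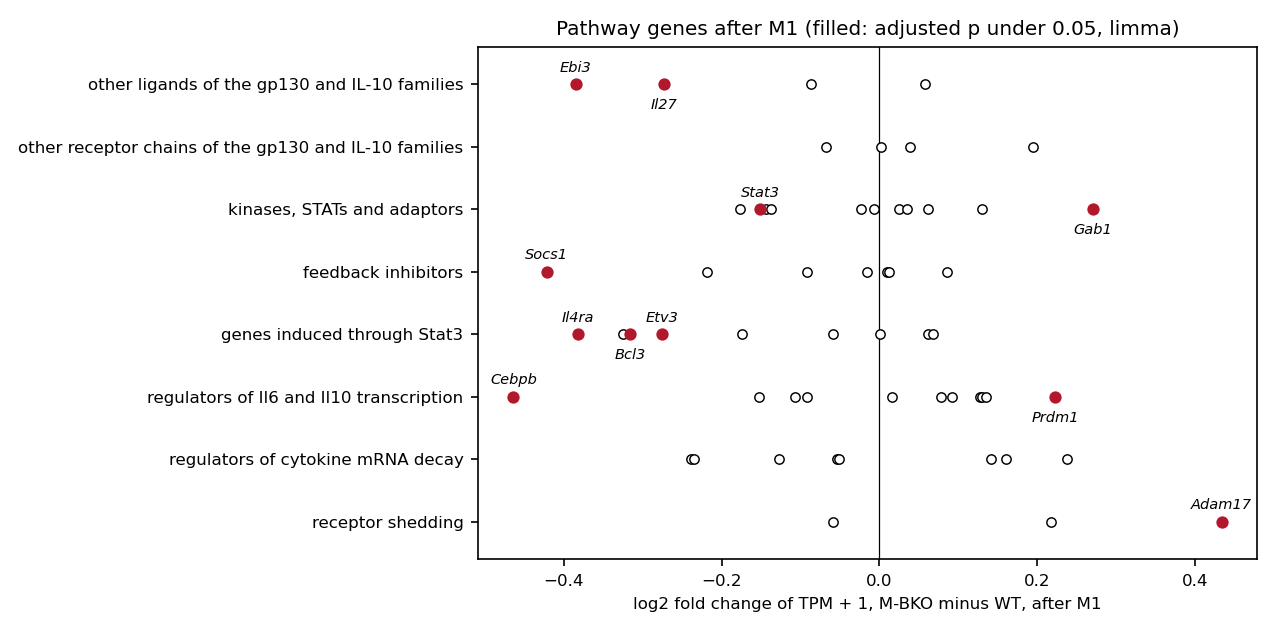
Log2 fold change of TPM + 1, M-BKO minus WT, after M1, for the 57 tested pathway genes in 8 lists. Filled points passed limma at an adjusted p under 0.05 and carry the gene name, open points did not. Of the 11 filled points, 8 lie below 0 and 3 above.

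Receptor shedding was described by 4 genes, 3 of which were tested. Adam17, the protease that releases the soluble IL-6 receptor, was at 218, 225 and 225 TPM in M-BKO M1 and 157, 164 and 173 TPM in WT M1. The groups lay apart, with a log2 difference of 0.43 (limma adjusted p = 1.8e-04) that held under median-ratio scaling (0.38, adjusted p = 1.1e-04). Rhbdf2, which brings Adam17 to the cell surface, rose with M1 (1.15 in M-BKO and 1.35 in WT), and Adam10, a related protease, fell (-2.07 and -1.99). Neither passed the test between genotypes after M1 (log2 difference -0.06 and 0.22, adjusted p = 0.69 and 0.14).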

How the data were processed

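The deposited table used here holds TPM by gene for 12 libraries, which the authors computed from stranded mRNA reads aligned to mm10. A second table of the authors' fold changes, p-values and FDR was not used. No read counts were analysed here. A gene was kept if 3 or more of the 12 libraries had 1 TPM or more (10822 of 23440), and kept genes were tested on log2(TPM + 1) with limma 3.58.1 in R 4.3.3, with 4 group means, 8 residual degrees of freedom, a variance trend and two-sided Benjamini-Hochberg adjusted p-values within each of 5 comparisons. Calls needed an adjusted p under 0.05 and, for M1 responses, a change over 1.5-fold. The procedure was tested on simulated data. The SD of a library's residuals was 0.0777 to 0.142 on the log2 scale. Ratios of 2 genes were compared by exact permutation.

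All 9 genes are named in every comparison. Of the pathway lists, genes called between genotypes or in the interaction are named, with up to 3 called genes per direction for M1 by smallest adjusted p in WT, and others as examples chosen after their values were seen. For Il6 and Il10 the 5 genes with the highest Pearson correlation were taken among genes with at least 5 TPM in the highest group mean, leaving out predicted genes. The members and lists were chosen with earlier results of these data known. Alternatives varied the pseudocount, filter, scaling, variance model, libraries fitted, replicate block and fold threshold, and left out each library. Promoters are from RefSeq GRCm38.p6, the build of mm10. A result is not reported here.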

Additional observations from a re-analysis of the deposited data

Results flagged for a closer look

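The M1 response differed between M-BKO and WT, by the interaction term of limma at an adjusted p under 0.05, for 6 of 57 pathway genes, beside 1.38% of all genes. Of the 57, 1 was called higher and 5 lower, and median-ratio scaling called 2 higher and 2 lower. The lists were chosen with earlier results of these data known, so the count tests no excess. The interaction was -0.56 for Socs1, -0.44 for Socs3, -0.41 for Ebi3, -0.41 for Il4ra, -0.26 for Etv3 and 0.35 for Il1rn on the log2 scale (adjusted p = 0.031, 0.032, 0.016, 0.0088, 0.031 and 0.012). The calls of Il4ra and Il1rn held on omission of each of the 12 libraries and under 9 other settings, and the other 4 were each lost on at least 4 omissions. Socs1 and Socs3 were each also lost under 4 of the 9 other settings and Etv3 under 3. No cause was tested.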

How the results depend on the processing

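Over up to 24 alternative settings, 342 of 350 values of the M1 response kept their direction and their side of the threshold, and 464 of 517 values between genotypes or of the interaction did. Among values between genotypes and of the interaction 24 changed sign, 18 dropped below the threshold and 11 rose past it. Median-ratio scaling, which removes a median M1 change of -0.45 in M-BKO and -0.43 in WT, called 2419 genes higher and 2381 lower in M-BKO and 2462 higher and 2298 lower in WT. Quantile normalization called 2173 higher and 2629 lower in M-BKO and 2162 higher and 2558 lower in WT. With no fold threshold 2290 genes were higher and 6981 lower in M-BKO, and 2424 higher and 6888 lower in WT. Il10rb turned to 0.44 in M-BKO and 0.46 in WT under median-ratio scaling, and ran from -0.058 to 0.044 in WT when each library was left out.

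Between genotypes after M1, adding 5 TPM called 1 of the 8 genes higher (Il6, adjusted p = 0.048) and 2 lower (Il10ra and Il10), median-ratio scaling and a fit of the compared groups alone each called 2 lower, and a fit with no variance trend called 0. Over all genes quantile normalization gave 382 higher and median-ratio scaling 476 lower. Leaving out each library gave 300 to 1267 genes higher and 146 to 528 lower over all genes, and 0 to 2 of the 8 lower. The difference of Il19 was 0.0051 with 0.1 TPM added. With each library left out it ran from -0.29 to 0.14 for Il19, from -0.11 to 0.020 for Il6ra and from -0.054 to 0.028 for Il6st.

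Without LPS, 0 of the 8 genes were called higher with 5 TPM added, no filter, median-ratio scaling, quantile normalization, Lyz2 left out of the total or a fit of the compared groups alone, and 1 was called lower, Il10ra, under median-ratio scaling, quantile normalization or without Lyz2. The replicate block also called 0 higher (Osm, adjusted p = 0.057). Same-numbered libraries of different groups correlated at -0.25 to 0.26 and 5 of 12 were closest to their own number, so the block is given here alone. Over all genes 141 were higher under median-ratio scaling, 200 under quantile normalization, 198 without Lyz2 and 217 with the compared groups alone, and 198, 201 and 56 were lower under median-ratio scaling, quantile normalization and the compared groups alone. Leaving out each library gave 207 to 732 genes higher and 71 to 144 lower, and 0 to 2 of the 8 higher. It moved Il19 from -0.043 to 0.041 and Il6 from -0.094 to 0.22.

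For the interaction, adding 5 TPM gave 146 genes lower, and leaving out each library gave 27 to 78 higher and 29 to 133 lower over all genes and 0 to 1 of the 8 lower (Il10, without WT control replicate 3). The value of Il19 was 0.013 with 0.1 TPM added, and that of Il10ra 0.012 under quantile normalization and 0.0031 without Lyz2. Leaving out each library moved Il19 from -0.28 to 0.15, Il10ra from -0.058 to 0.0099 and Il10rb from -0.090 to 0.013. Why these values moved was not tested. Read depth is unknown, so the precision rests on 3 cultures per group.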

Other observations

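The genes whose levels over the 12 libraries were most like that of Il6 were Xkr8, Bcl2a1b, Dusp16, Gsr and Tma16 (Pearson r of log2(TPM + 1) of at least 0.999, 8603 genes compared). Xkr8, which belongs to a family of phospholipid scramblases, averaged 49.3 TPM in M-BKO M1, 46.0 TPM in WT M1, 16.5 TPM in M-BKO control and 16.5 TPM in WT control. The genes most like Il10 were Tmem171, Tspan3, Dnajc2, Nfkbiz and Tnfsf9 (r of at least 0.997). Tspan3, a tetraspanin, averaged 540 TPM in M-BKO M1, 655 TPM in WT M1, 35.8 TPM in M-BKO control and 36.1 TPM in WT control. All 12 points share the split between M1 and control cultures, so these values describe that split for the most part.

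Of 8 regulators of cytokine mRNA decay, 3 rose and 1 fell with M1 in each genotype. Over all genes 12.3% rose and 42.3% fell in M-BKO, and 12.9% rose and 41% fell in WT. Zc3h12a, which encodes the Il6 mRNA nuclease regnase-1, rose by 2.16 on the log2 scale in M-BKO and 2.44 in WT, and Zfp36, which encodes tristetraprolin, rose by 1.68 in M-BKO and 1.91 in WT. Arid5a, which stabilizes Il6 mRNA, rose by 0.67 in M-BKO and 0.92 in WT, and Zfp36l1, a relative of Zfp36, fell by 1.69 in M-BKO and 1.55 in WT. None of the 8 was called by limma between genotypes after M1. Unadjusted, 3 had a p under 0.05, a count with no share over all genes beside it. Median-ratio scaling called 2 lower in M-BKO, Zfp36l1 (-0.29, adjusted p = 0.018) and Arid5a (-0.29, adjusted p = 0.045).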
